A study of Sus scrofa with 12 samples.

Results

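The uterus of nursed gilts was compared with that of gilts fed milk replacer, both at day 2 after birth. A gilt is a young female pig. The comparison took all 8 day 2 libraries of the 12 in the study, 1 library per animal, and every gene whose normalized value exceeded 1, the lowest value the table holds, in at least 4 of those 8 libraries. This kept 16319 of 20390 protein-coding genes.

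Whole uterus was trimmed of connective tissue and its messenger RNA sequenced. The nursed group (PND2N, 4 gilts) suckled without restriction for 48 h after birth, and the replacer-fed group (PND2R, 4 gilts) was given a commercial milk replacer over the same 48 h. Both were killed at 50 h of age, so they were of equal age and differed in how they were fed. Whether they also differed in other ways was not tested. A newborn group (PND0, 4 gilts, killed within 1 h of birth and not nursed) shows the starting level of a gene. Every animal was a cross of the Landrace, Yorkshire, Duroc and Hampshire breeds, and no genotype or transgene is involved. The labels give neither the litter nor the makeup of the replacer, so p-values measure the spread between these animals, and the part of litter was not tested. Replicate numbers were given in accession order and only name an animal.

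Colostrum, the first milk, carries nutrients, antibodies, hormones and growth factors. Transfer of milk-borne bioactive factors such as relaxin from mother to nursing young has been termed lactocrine signalling, and the neonatal pig uterus is a tissue in which it is studied. Uterine glands in the pig develop after birth from the lining epithelium into the underlying stroma, with estrogen receptor, the relaxin receptor, WNT and HOX genes and matrix-degrading enzymes among the genes followed in that process. Milk is also rich in fat, and tissues that take up fatty acids switch on genes for their transport and oxidation.

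The day 2 libraries did not fall apart by feeding. Principal component 1 of the tested log2 values held 70.0% of their variance, and only 4.86% of the spread on it lay between the feeding groups. Nursed library 1 and replacer-fed libraries 2 and 3 stood apart on it, with scores of -96.2, -82.1 and -84.0, while the other 5 had scores from 6.26 to 90.1. The same 3 libraries had the highest medians of the 14 smooth muscle markers tested (0.66, 0.47 and 0.31 log2 units above each marker's mean over the 8 libraries, against -0.98 to 0.12 in the other 5). They also had the highest medians of 47 oxidative phosphorylation genes (0.45, 0.26 and 0.39, against -0.38 to 0.02). In them 4.07%, 3.79% and 3.37% of tested genes stood at the lowest value, against 1.16% to 2.01% in the other 5. What set these libraries apart was not tested. Component 2 held 9.03% of the variance, 63.5% of its spread lay between the groups, and the highest replacer-fed score (14.1) lay above the lowest nursed one (9.55). Correlations of log2 values between a nursed and a replacer-fed library were 0.913 to 0.985 (median 0.972), against 0.908 to 0.984 within nursed and 0.938 to 0.992 within replacer-fed libraries. Totals of normalized values were 26772109 to 29544130, and 1.16% to 4.07% of tested genes stood at the lowest value, where a gene was not detectable at this depth. The most frequent low value, 1.18 to 2.42, gives totals of 12172797 to 22749729 such steps. Whether a step is 1 read is not given, so this is relative depth only.

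**Figure D1:**
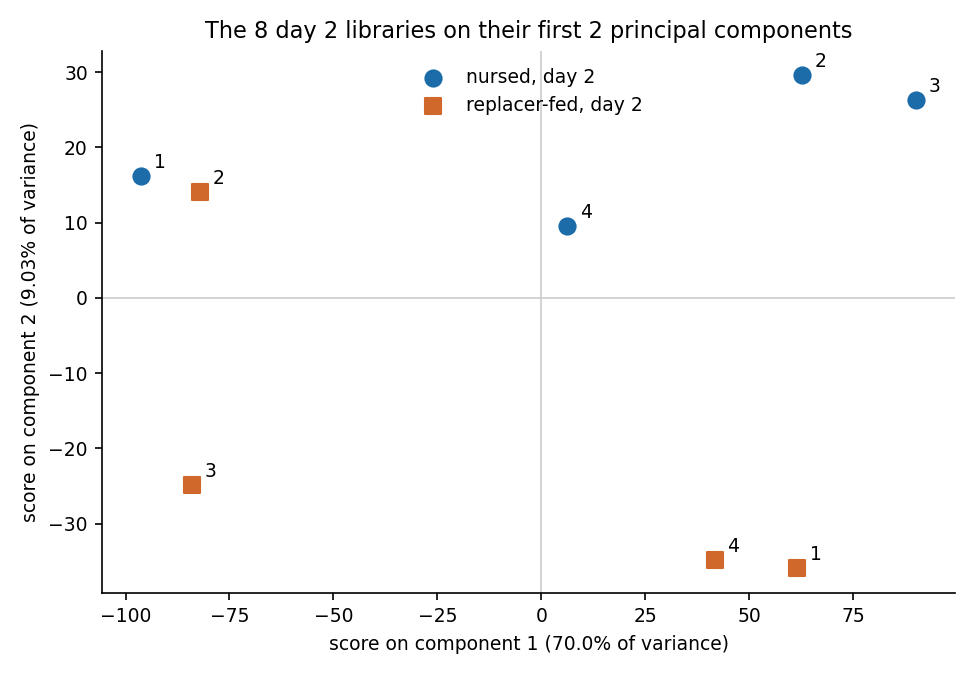
Scores of the 8 day 2 libraries on the components that hold most of their variance, from log2 values of the tested genes. Circles are nursed and squares replacer-fed gilts, numbered within their group. Nursed library 1 lies at -96.2 on the horizontal axis beside replacer-fed libraries 2 and 3 (-82.1 and -84.0), while all 8 scores on the vertical axis lie between -35.9 and 29.6.

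Feeding separated few genes beyond the spread between animals. In limma, fitted on log2(value + 1) of all 12 libraries, no gene was higher in nursed than in replacer-fed gilts at a Benjamini-Hochberg adjusted p under 0.05 (0.0% of 16319), and 2 were lower (0.0123%). At an unadjusted p under 0.05, 252 genes were higher (1.54%) and 189 lower (1.16%). The 4 nursed libraries all lay above the 4 replacer-fed ones for 234 genes (1.43%) and below them for 196 (1.2%), 2.63% together, and the unadjusted p was under 0.05 for 2.7% in either direction. With no difference between the groups, that threshold would let through a share of 0.05 of the genes, and 2.7% is below it. Neither count by itself marks a gene as differing. The median log2 difference, nursed minus replacer-fed, was 0.03, and 54.5% of genes had a positive one. After the 2 genes called, the smallest adjusted p was 0.493. At least 2-fold differences with an unadjusted p under 0.05 were seen for 229 genes.

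These counts moved with the libraries in the fit. Without the 3 libraries that stood apart, which leaves 3 nursed and 2 replacer-fed, limma called 3 genes higher and 3 lower, and 323 and 258 had an unadjusted p under 0.05. Leaving out nursed library 1 alone gave 1054 genes higher and 489 lower at that unadjusted level, leaving out nursed library 2 gave 136 and 123, and leaving out nursed library 3 gave 159 higher.

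**Figure D2:**
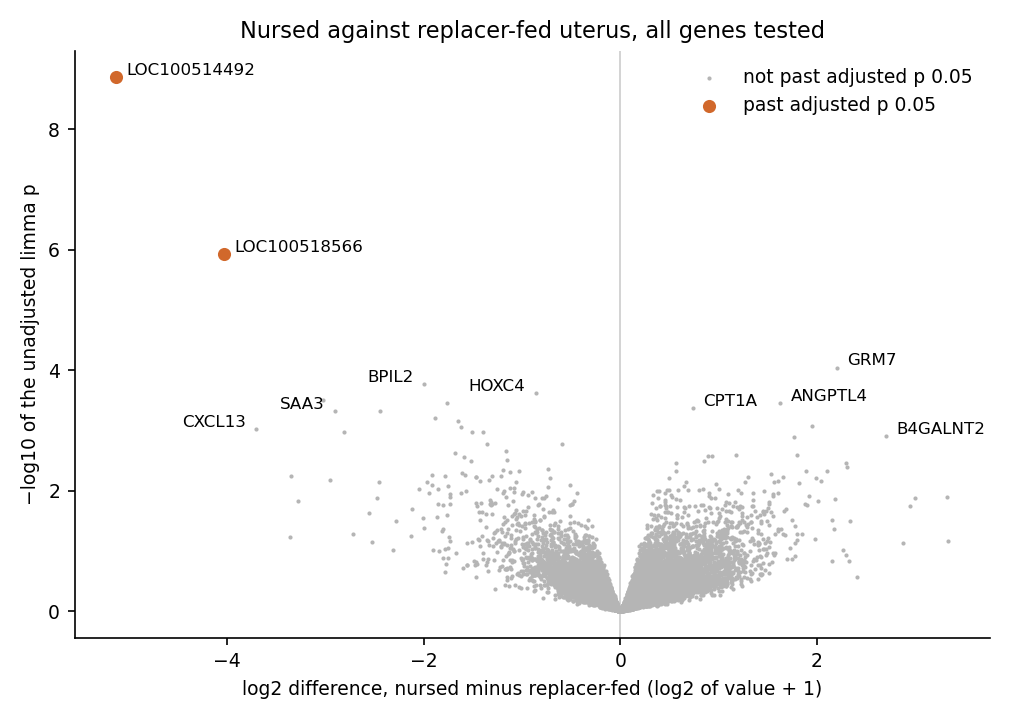
Log2 difference between nursed and replacer-fed uterus (horizontal, log2 of value + 1, negative where lower in nursed) against -log10 of the unadjusted limma p (vertical) for the 16319 genes tested. The 2 large points, at -5.13 and -4.03, passed an adjusted p of 0.05, and the small points did not.

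Both called genes are placeholders without a symbol, and they are named here because they were called, after their values were seen. LOC100514492 is annotated as a hypothetical protein at chr13:65432520-65460967 of Sscrofa10.2 on the plus strand. Its normalized value in the nursed libraries was 1, 1.27, 1 and 1.67, and in the replacer-fed ones 76.05, 91.2, 73.5 and 67.1. It thus stood at or near the lowest value in each nursed library and far above it in each replacer-fed one. Newborn libraries held 14.8 to 30.5, between the day 2 groups, so that both day 2 groups lay outside the newborn range, on opposite sides of it. The log2 difference was -5.13 ± 0.32 (SE) on the log2(value + 1) scale, which understates it at such low values (limma adjusted p = 2.27e-05). The gene was called under every alternative run.

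The 28448 bases of LOC100514492 lie within SUMF1 (chr13:65417806-65508373, minus strand), which encodes the enzyme that activates sulfatases. Whether the counting used strand is not given, so reads of the overlapping genes cannot be fully told apart. SUMF1 itself had a log2 difference of 0.03 ± 0.26, and ITPR1, an intracellular calcium channel gene further along the chromosome, one of 0.41 ± 0.64.

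LOC100518566 is annotated as TMEM126B-like at chr9:22290442-22297782, minus strand. TMEM126B is a mitochondrial membrane protein needed to assemble respiratory complex I. The nursed libraries had values of 3.63, 5.59, 7.65 and 3.35 and the replacer-fed libraries 106, 44.6, 179 and 91.5. All 4 nursed values lay below all replacer-fed and all newborn values, the latter being 59.2 to 134. The log2 difference was -4.03 ± 0.45 (limma adjusted p = 0.00961). The call was lost with only the day 2 libraries in the limma fit (adjusted p = 0.168), and without nursed library 4 (0.0683), replacer-fed library 1 (0.0617) or replacer-fed library 4 (0.0595). With single libraries left out, its log2 difference stayed between -4.38 and -3.72.

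The gene named TMEM126B lies 142852 bases away at chr9:22440635-22448240 on the plus strand. Sequences of these genes were not compared. If they are close copies, the counting may divide reads between them, so the level of each is uncertain. For TMEM126B the nursed values were 409, 345, 384 and 399.8 and the replacer-fed values 184, 243, 207 and 195. The nursed libraries were all above the replacer-fed ones, the opposite order to LOC100518566. The log2 difference of 0.89 ± 0.24 did not pass the adjusted threshold (limma adjusted p = 0.997). Of the summed value of both genes, LOC100518566 took 0.83% to 1.95% in nursed, 15.5% to 46.4% in replacer-fed and 20.7% to 46.3% in newborn libraries. The sum itself was 412, 351, 391 and 403 in nursed and 291, 288, 385 and 287 in replacer-fed libraries, so that replacer-fed library 3 lay within the nursed range. TMEM126A, the next gene on the chromosome, had a log2 difference of -0.03 ± 0.21.

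**Figure D3:**
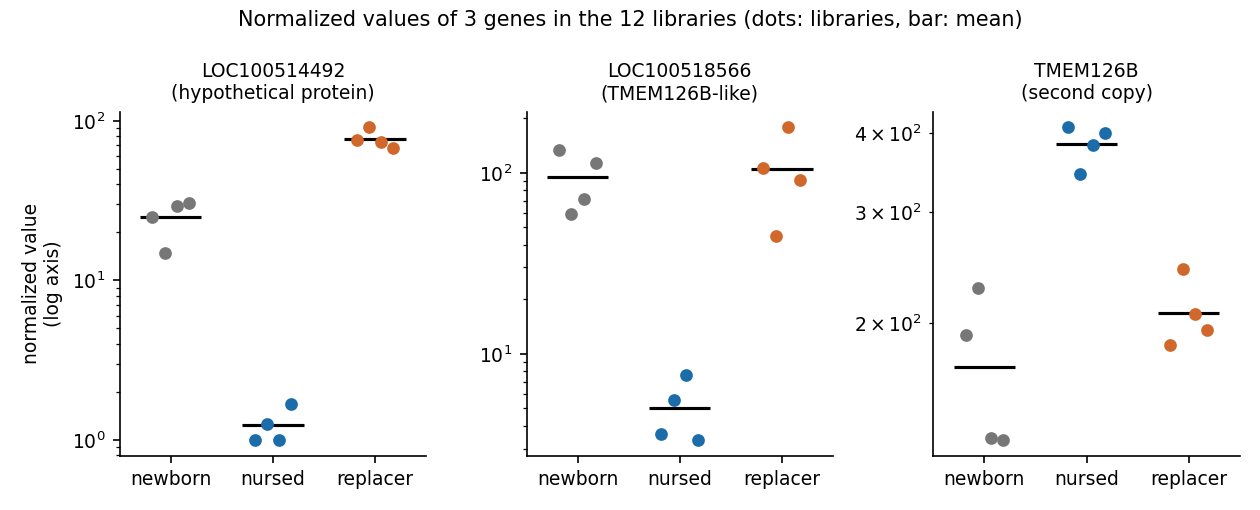
Normalized values (log axis) of LOC100514492, LOC100518566 and TMEM126B in newborn, nursed and replacer-fed libraries, with 1 dot per library and a bar at the group mean. In the left and middle panels the nursed dots (1 to 1.67 and 3.35 to 7.65) lie below all others, while in the right panel they (345 to 409) lie above all others.

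No other gene passed the adjusted threshold, and the genes described from here on are given as values that did not pass it. Among genes with a symbol and a known function, whose nursed and replacer-fed libraries did not overlap and whose mean was at least 10 in the higher group, the 12 with the smallest unadjusted p in each direction had limma adjusted p-values of 0.493 to 0.997. For these genes the absence of overlap was a condition of the choice, so where it is given below it is no result about them. Gene lists were chosen with earlier results of these data known. Except for a uterine panel and the metalloproteinases, a list is described because at least 3 members had an unadjusted p under 0.05 in 1 direction. That its share in that direction exceeds the share of all genes was thus a condition of the choice.

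Genes of fatty acid handling held the most members with higher values in nursed gilts. Of 41 tested members of a list for fatty acid oxidation and the fasting response, 6 were higher at an unadjusted p under 0.05 (14.6%, against 1.54% of all genes), and none was lower. They are CPT1A, ACADL, PDK4, ANGPTL4, CD36 and LPL. Differences were positive for 29 members and their median was 0.14, against 0.03 over all genes. The median member lay 0.07 to 0.13 log2 units above its mean over the 8 libraries in each nursed library, and the corresponding values were -0.07 to -0.03 in the replacer-fed ones. Without nursed library 2, nursed library 3 or replacer-fed library 3, the 6 members became 3, and 0 to 1 member was lower with 1 library left out.

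CPT1A encodes the enzyme that commits long-chain fatty acids to entry into mitochondria for oxidation. Its nursed values were 6575, 9594, 7635 and 8825, and its replacer-fed values were 4742, 4810.5, 4866 and 4911. The replacer-fed animals lay within a narrow band under every nursed animal, and newborns ran lower still, 3069 to 4383. Nursed minus replacer-fed, the log2 difference came to 0.74 ± 0.15 (limma adjusted p = 0.711).

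ANGPTL4 is a secreted inhibitor of lipoprotein lipase that fatty acids induce through PPAR receptors. Its values were 2509.7, 2158, 1329.7 and 3624 in nursed and 442, 1014, 1066 and 597 in replacer-fed libraries. Again no nursed value reached down to the replacer-fed ones, and all nursed values also lay above the newborn range of 553 to 764. On the log2 scale the groups differed by 1.63 ± 0.33 (limma adjusted p = 0.711).

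CD36, a fatty acid transporter of the cell surface, had nursed values of 166, 383, 378 and 247 and replacer-fed values of 76.1, 112, 119 and 82.1. These did not overlap either, and the log2 difference was 1.53 ± 0.45. LPL, the lipase that frees fatty acids from circulating triglyceride, had 48.7, 191, 174 and 85.5 in nursed and 73.7, 24.1, 15.5 and 75.4 in replacer-fed libraries. Nursed library 1 lay among the replacer-fed values, the log2 difference was 1.48 ± 0.57, and newborns stood above both groups at 325 to 610.4. PDK4, a kinase that shuts pyruvate out of the citric acid cycle when fat is burned, overlapped as well, with 853, 2670.4, 1592 and 1968 against 1319, 414, 536 and 1194. Its log2 difference was 1.09 ± 0.47, and that of ACADL, a dehydrogenase of long-chain acyl-CoA oxidation, was 0.58 ± 0.23.

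Catalase (CAT), which breaks down hydrogen peroxide in peroxisomes, was among the 12 genes with smallest p. Its nursed values were 3889, 5959, 6034 and 5270.3 and its replacer-fed values 3884, 3616, 2929 and 3723. Nursed library 1 exceeded the highest replacer-fed library only narrowly, and the log2 difference was 0.57 ± 0.16.

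A list of glucocorticoid response genes shares ANGPTL4 and PDK4 with the fatty acid list. Of its 24 tested members, 3 were higher at an unadjusted p under 0.05 (ANGPTL4, PDK4 and TXNIP, 12.5% against 1.54% of all genes) and none was lower, and the median difference was 0.13. The median was 0.07 without replacer-fed library 3 or without the 3 libraries that stood apart. Without the 3 libraries that stood apart, 2 were higher and 2 lower. Without nursed library 1, 5 were higher and 2 lower, and without newborn library 2, 1 was lower. TXNIP, an arrestin-like protein that binds thioredoxin and restrains glucose uptake, had nursed values of 29053, 42591, 32653 and 39842 and replacer-fed values of 29216, 25487, 21101 and 27640.0. Nursed library 1 lay just under the highest replacer-fed library, and the log2 difference was 0.47 ± 0.15. DDIT4, a stress-induced inhibitor of mTOR signalling on the same list, had a difference of -0.43 ± 0.21.

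Matrix metalloproteinases, the enzymes that degrade extracellular matrix, were measured with their inhibitors. Of 21 tested members, MMP7, MMP12 and MMP13 were higher in nursed gilts at an unadjusted p under 0.05, and none was lower. That is 14.3%, against 1.54% of all genes. Each of the 3 was free of overlap, as were 1.43% of all genes in that direction. The median difference was 0.20, and 14 differences were positive. Without nursed library 2 or nursed library 3, 1 member was at that level.

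MMP7, matrilysin, is a metalloproteinase of glandular epithelium and had values of 393, 499, 491 and 866 in nursed and 162, 189, 141 and 247 in replacer-fed libraries. The lowest nursed library exceeded the highest replacer-fed one by more than the replacer-fed SD of 45.8, and both groups stood far above newborns (11.2 to 51.4). This gave a log2 difference of 1.57 ± 0.49 (limma adjusted p = 0.997).

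MMP12, macrophage elastase, and MMP13, a collagenase (MMP-13 in the table), were near the lowest value. MMP12 had 2.42, 11.6, 6.87 and 3.35 in nursed and 2.22, 1, 1 and 1.91 in replacer-fed libraries, and MMP13 had 4.84, 5.59, 11.8 and 5.001 and 1.11, 3.54, 4.398 and 1.91. At such levels a few reads set the difference. RECK, a membrane-bound inhibitor of metalloproteinases, had a log2 difference of 0.47 ± 0.23 with overlapping groups.

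Structural matrix genes leaned the same way. In a list of interstitial collagens and matrix proteins, 34 of 43 tested members had positive differences and the median was 0.26. It was 0.13 without nursed library 2 and 0.18 to 0.36 without any other 1 library. The median member lay 0.36 and 0.27 log2 units above its mean over the 8 libraries in nursed libraries 2 and 3, but stood at -0.14 and -0.04 in nursed libraries 1 and 4, and at -0.27 to -0.09 in the replacer-fed ones. Nursed library 1 was thus lower than 3 of the 4 replacer-fed libraries. At an unadjusted p under 0.05, 4 were higher (ASPN, SPARC, COL5A1 and FBLN2, 9.30% against 1.54% of all genes). PRG4 was lower at that level (2.33%, against 1.16% of all genes). The count of 4 became 8 without nursed library 1 and 2 without nursed library 2, nursed library 3, replacer-fed library 1 or replacer-fed library 4. PRG4 lost that level without nursed library 1, nursed library 2, replacer-fed library 3 or replacer-fed library 4, or without the 3 libraries that stood apart.

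ASPN, asporin, is a small proteoglycan that binds collagen, with values of 8117, 9347, 12451 and 7517 in nursed and 6794, 5157, 6115 and 6576 in replacer-fed libraries. SPARC, a secreted protein that binds collagen and regulates its deposition, had 65875, 78772, 69702 and 63023 against 56627, 61268, 48542 and 53183. Neither gene overlapped between the groups, with log2 differences of 0.58 ± 0.19 and 0.34 ± 0.11.

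COL5A1, a chain of the collagen that starts fibril assembly, had 5204, 9526, 9779.9 and 5072 in nursed libraries. Its replacer-fed values were 4826, 5250.4, 3623 and 4560.3, so that nursed libraries 1 and 4 lay within the replacer-fed range, and the log2 difference was 0.64 ± 0.27. PRG4, the lubricating proteoglycan of serous and joint surfaces, had 440.0, 323, 519.9 and 704 against 614, 722, 1617 and 1066, a difference of -0.97 ± 0.41. The cartilage collagen COL2A1 is not on that list but was among the 12 with smallest p: its nursed values of 23.8, 61.9, 39.2 and 56.8 stood above all replacer-fed ones, 16.9, 7.68, 14.6 and 5.72, with a difference of 1.95 ± 0.44.

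In the antigen presentation list, 3 of 23 tested members were higher at an unadjusted p under 0.05 (13.0%, against 1.54% of all genes) and none was lower. All 3 belong to the MHC class II pathway, by which professional antigen-presenting cells show peptides to helper T cells. The median of the list was 0.07. Counts of such members were 1 without nursed library 3 and 0 without replacer-fed library 1 or replacer-fed library 4, and 5 without the 3 libraries that stood apart. MHC genes of the pig are polymorphic and have close relatives, so the counting could misplace their reads.

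SLA-DRA, a class II alpha chain, had 1645, 1987, 2301 and 2302 in nursed and 636, 1655, 1102 and 562 in replacer-fed libraries. Nursed library 1 and replacer-fed library 2 met at nearly the same value, and the log2 difference was 1.18 ± 0.43. SLA-DMB, a chain of the chaperone that loads class II molecules, had 586, 702, 654 and 606 against 342, 486, 519.9 and 377, without overlap, a difference of 0.58 ± 0.23. SLA-DQA1 differed by 0.85 ± 0.36 with overlap. CD86, a costimulatory ligand for T cells, went the other way at -0.64 ± 0.39.

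CD1.1 presents lipid antigens to T cells and was among the 12 genes with smallest p. Its values were low, 17.3, 13.4, 13.4 and 24.1 in nursed and 6.48, 3.003, 1.1 and 9.35 in replacer-fed libraries. The groups did not overlap, and the difference was 1.80 ± 0.48.

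Other genes among the 12 with smallest p and higher nursed values belong to no single pathway. GRM7, a metabotropic glutamate receptor, had 90.6, 256, 166 and 191 in nursed and 18.3, 35.3, 56.2 and 41.5 in replacer-fed libraries. The replacer-fed libraries all lay below the nursed ones, which in turn lay below the newborn range of 331 to 447. The log2 difference was 2.20 ± 0.38, with the smallest limma adjusted p of all genes not called, 0.493. Without the 3 libraries that stood apart GRM7 passed the threshold (difference 2.82, limma adjusted p = 0.0492).

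B4GALNT2, which adds the terminal sugar of the Sd(a) carbohydrate antigen to epithelial glycans, had 239, 384, 429 and 1007 in nursed libraries and 149, 17.2, 53.9 and 147 in replacer-fed ones. All nursed values were higher, with a wide spread in both groups and a difference of 2.70 ± 0.65. CRY2, a repressor of the circadian clock, had 1339, 1529, 1204 and 1481 against 906, 1115, 848 and 873, a difference of 0.57 ± 0.16. Newborn values of CRY2 were 1392 to 1916.

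ADD2, a subunit of the membrane skeleton protein adducin, had 331, 199, 195 and 277 in nursed and 111, 144, 149 and 110.1 in replacer-fed libraries. Newborn values were higher again, 864 to 1315, and the day 2 groups differed by 0.94 ± 0.25. GABRG1, a subunit of the GABA type A receptor, had low values of 8.03, 31.2, 49.8 and 33.7 against 3.699, 6.13, 3.69 and 4.69 (2.29 ± 0.63), and POU3F4, a POU domain transcription factor, had 9.68, 71.1, 17.3 and 10.97 against 4.43, 1, 4.398 and 3.82 (2.31 ± 0.65).

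Chemokines, cytokines and acute phase proteins differed in both directions. Of 39 tested, CXCL13, SAA3 and SAA2 were lower in nursed gilts at an unadjusted p under 0.05 (7.69%, against 1.16% of all genes). CX3CL1 and CXCL8 were higher at that level (5.13%, against 1.54% of all genes), and the median was -0.02. The median turned to 0.03 without nursed library 2, 0.07 without replacer-fed library 3 and 0.11 without the 3 libraries that stood apart, and reached -0.14 without replacer-fed library 1. With 1 library left out, 2 to 4 were lower. The count of 2 higher became 0 without nursed library 4 or without the 3 libraries that stood apart, and 1 without nursed library 3 or without replacer-fed library 2, 3 or 4.

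CXCL13 is the chemokine that draws B cells into lymphoid follicles. It stood at 1, 24.2, 9.41 and 10.04 in nursed libraries and at 81.96, 548, 41.8 and 84.9 in replacer-fed ones. Replacer-fed library 2 was far above the other 3, but all 4 lay above every nursed library, and newborns had only 1 to 4.896. The log2 difference was -3.70 ± 0.86 (limma adjusted p = 0.910), and without the 3 libraries that stood apart, replacer-fed library 2 among them, it was -2.57.

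SAA3, a serum amyloid A protein induced locally by inflammation, had 2.298, 8.85, 11.8 and 10.002 in nursed and 57.6, 60.3, 22.5 and 166 in replacer-fed libraries. The groups did not overlap, newborns had 1.52 to 5.75, and the difference was -2.90 ± 0.61 (limma adjusted p = 0.711). The table describes this entry as serum amyloid A2, and SAA genes are close copies, so the member of the family that it counts is uncertain. The entry named SAA2 had a difference of -1.05 ± 0.42.

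CX3CL1, fractalkine, a membrane-bound chemokine, had 1173, 1541, 1209 and 1786 in nursed and 1126, 855, 617 and 1056 in replacer-fed libraries, without overlap (0.66 ± 0.24). CXCL8, the neutrophil chemokine listed as IL8, stayed close to the lowest value, with 4.84, 3.72, 9.57 and 8.36 against 4.43, 1.77, 2.199 and 1.91 (1.07 ± 0.41).

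Genes of cholesterol synthesis and uptake had mostly lower values in nursed gilts. Differences were positive for 6 of 27 tested members, against 54.5% over all genes, and the median was -0.22. At an unadjusted p under 0.05, 3 members were lower (MVK, STARD4 and ACAT2, 11.1% against 1.16% of all genes), with none higher. None of the 27 was free of overlap, and over all genes only 2.63% were. The count of 3 became 6 without nursed library 1, 1 without replacer-fed library 2 and with only day 2 libraries in the fit, and 0 without nursed library 2, nursed library 4 or replacer-fed library 3. Leaving out nursed library 1 also gave 1 member higher.

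MVK, mevalonate kinase, an early enzyme of the pathway, had 1416, 484, 755 and 435 in nursed and 1156, 927, 2089.5 and 1109 in replacer-fed libraries. Nursed library 1 was the second highest of all 8, and the other 3 nursed libraries lay below every replacer-fed one. The difference was -0.87 ± 0.36. STARD4, which carries cholesterol between membranes, had 488, 287, 241 and 267 against 376, 682, 706 and 429.6 (-0.77 ± 0.31), and there too only nursed library 1 reached the replacer-fed range. ACAT2, which joins acetyl-CoA units, had 3739.6, 1691, 2522 and 1628 against 2712, 3559, 5229 and 2974 (-0.63 ± 0.27), and SC5D, a late desaturase of the pathway, differed by -0.33 ± 0.17.

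HOXC4, a homeobox gene of axial patterning, had lower values in nursed gilts. Its nursed values were 512, 394, 533 and 471 and its replacer-fed values 791, 871, 945 and 852. The difference was -0.86 ± 0.17 (limma adjusted p = 0.711). Newborn values, 634 to 859, lay above all nursed ones and reached into the replacer-fed range. Of 33 tested developmental homeobox genes, HOXC4 was the only one at an unadjusted p under 0.05 (3.03%, against 1.16% of all genes lower). The median was -0.10.

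BPIL2, of the family of lipopolysaccharide-binding proteins, had 62.9, 52.6, 27.01 and 55.03 in nursed and 166, 161, 294 and 171 in replacer-fed libraries. Every replacer-fed value was above every nursed and newborn value, and the difference was -2.0 ± 0.38. CDH10, a cadherin, had 58.1, 30.3, 50.01 and 46.0 against 124, 99.2, 224 and 149 (-1.65 ± 0.37). Newborn values of CDH10, 77.3 to 180.3, overlapped the replacer-fed range.

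ESRRG, an orphan nuclear receptor related to the estrogen receptor, had 43.5, 36.3, 20.6 and 41.8 in nursed and a narrow 121, 109.8, 107 and 112 in replacer-fed libraries (-1.68 ± 0.44). MT-III, a metallothionein that binds zinc and copper, had 338, 132, 110.0 and 367 against 412, 497, 1639 and 760.0 (-1.78 ± 0.53). Nursed library 4 came close to the lowest replacer-fed value.

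RANBP17, a nuclear transport receptor, had 1443, 1174, 1083 and 1277 against 2099, 1672, 1925 and 1822 (-0.60 ± 0.15), and ATP13A4, a cation-transporting ATPase, had 438, 365, 355 and 470.4 against 754, 496, 759.7 and 691 (-0.72 ± 0.22). Both differences are small, and the absence of overlap was a condition of the choice. Low values marked the remaining 3: IGSF21, a synaptic adhesion protein, stood at the lowest value in nursed libraries 2, 3 and 4 and at 13.2 to 29.2 in replacer-fed libraries (-3.02 ± 0.61). CAPN8, a calcium-dependent protease of gastric mucosa, had 9.41 to 14.5 against 23.9 to 28.6 (-1.17 ± 0.30), and AMPD1, the AMP deaminase of muscle, had 6.47 to 7.26 against 11.3 to 23.1 (-1.12 ± 0.33).

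**Figure D4:**
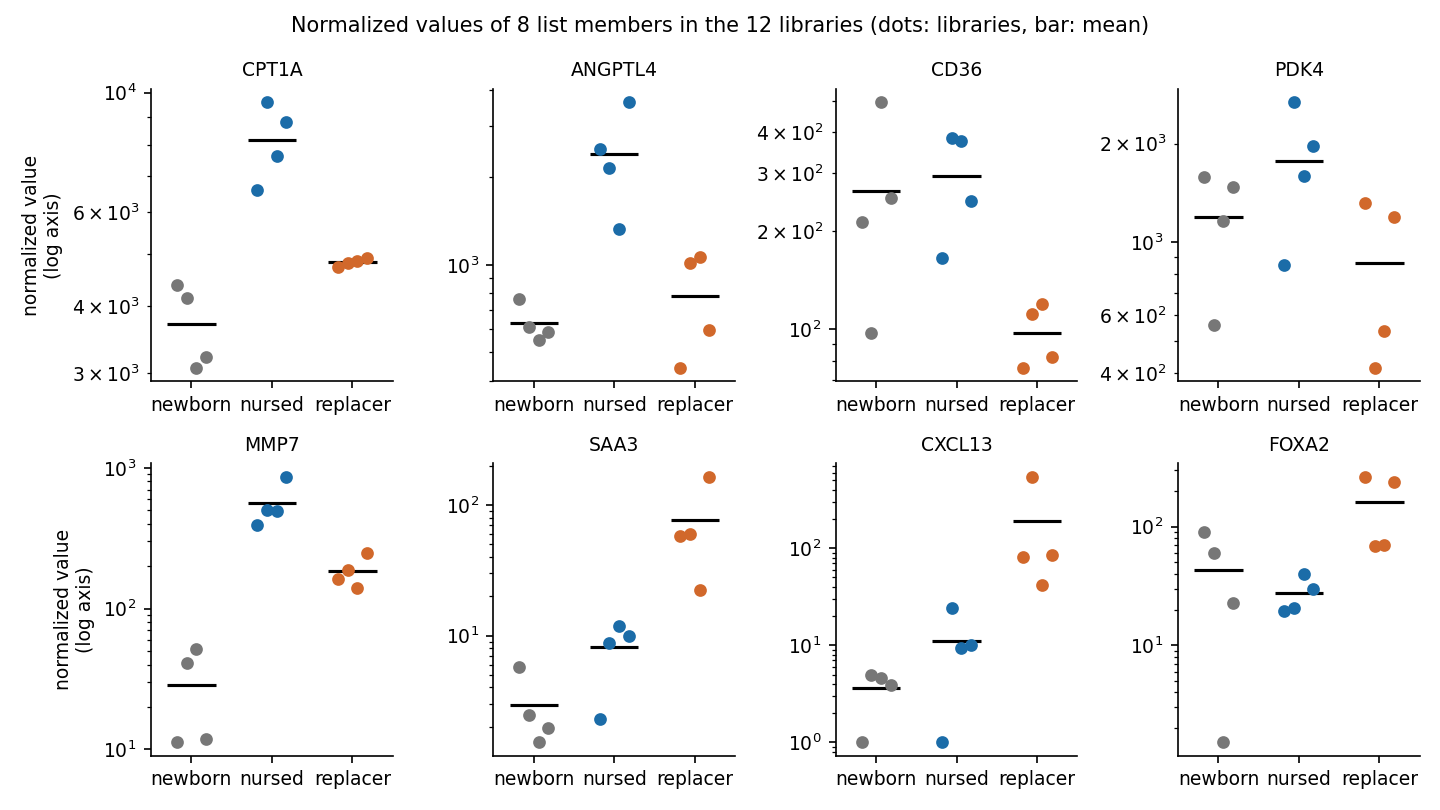
Normalized values (log axis) of 8 members of the described lists in newborn, nursed and replacer-fed libraries, with 1 dot per library and a bar at the group mean. Nursed dots lie above all replacer-fed dots for CPT1A, ANGPTL4, CD36 and MMP7 and below them for SAA3, CXCL13 and FOXA2, and the groups overlap for PDK4. None of the 8 passed an adjusted p of 0.05.

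A panel of genes followed in uterine development and lactocrine work held 29 tested members. At an unadjusted p under 0.05, MMP7 was higher and FOXA2 lower in nursed gilts, and the median difference was 0.07. These are 3.45% each, against 1.54% of all genes higher and 1.16% lower, and each share rests on 1 member. The count of 1 higher became 2 without nursed library 1, replacer-fed library 2 or newborn library 1, and with only day 2 libraries in the fit. The count of 1 lower became 0 without nursed library 4 or replacer-fed library 4, and 2 without the 3 libraries that stood apart.

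FOXA2 is a transcription factor of uterine gland epithelium. Its values were 19.4, 20.5, 40.01 and 30.04 in nursed and 264, 68.2, 69.9 and 239 in replacer-fed libraries. All nursed libraries lay below all replacer-fed ones, and newborns ranged over 1.52 to 89.4. The difference was -2.28 ± 0.94 (limma adjusted p = 0.997), and it was -3.07 without the 3 libraries that stood apart. IHH, the hedgehog ligand of uterine epithelium, was low, with 19.4, 1, 11.8 and 8.36 against 52.1, 6.197, 6.597 and 50.6 (-1.24 ± 0.92). Its groups overlapped, and the difference was -3.07 without the 3 libraries that stood apart (limma adjusted p = 0.929), -0.55 without nursed library 2 and -1.72 to -0.76 without any other 1 library.

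Levels of the hormone receptors ESR1, RXFP1, PRLR and PGR overlapped between the groups. ESR1, the main estrogen receptor of the uterus, had 4962, 7785, 5520.2 and 4286 in nursed and 5978, 3910.0, 4235 and 5425 in replacer-fed libraries. The difference was 0.19 with a 95% interval of -0.53 to 0.92, which spans both directions. RXFP1, the relaxin receptor, had 1678, 1799, 934 and 1812 against 1849, 1608, 1315 and 1483, a difference of -0.05 (-0.64 to 0.55). Nursed library 3 was the lowest of the 8 for RXFP1, and every day 2 library except nursed library 3 and replacer-fed library 3 was above the highest newborn one (1425).

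For PRLR, the prolactin receptor, the interval was -0.45 to 0.93 around 0.24. For PGR, the progesterone receptor, it was -1.41 to 1.55 around 0.07, too wide to bound a difference of 2-fold. RLN3, a relaxin family peptide, differed by -0.21 (-1.199 to 0.77).

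VEGFA, the vascular growth factor, had 3849, 3098, 2534 and 2968 in nursed and 3358, 3727, 3834 and 3253 in replacer-fed libraries. The groups overlapped, and the interval of -0.55 to 0.15 around -0.20 excludes a 2-fold difference. Gelatinase MMP2 differed by 0.07 (-0.31 to 0.45) and gelatinase MMP9 by 0.64 (-0.39 to 1.68). For their inhibitors TIMP1 and TIMP2, differences were 0.09 (-1.03 to 1.201) and 0.25 (-0.07 to 0.57).

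Transcription factors and WNT ligands of uterine patterning overlapped between the groups. HOXA10 and HOXA11, which give the uterus its identity along the reproductive tract, were found at 3861 to 6269 and 3827 to 8219 in the day 2 libraries, with differences of 0.04 (-0.55 to 0.64) and 0.10 (-0.51 to 0.71). WNT7A, a ligand of uterine epithelium, differed by 0.02 (-1.21 to 1.25), and MSX1, a homeobox factor, by -0.45 (-1.45 to 0.54). WNT4, a ligand needed for gland formation, differed by -0.69 (-1.44 to 0.07), WNT5A, a ligand of uterine stroma, by 0.34 (-1.11 to 1.78), and LEF1, a factor that carries WNT signals to the genome, by -0.28 (-0.73 to 0.17).

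Growth factor genes of the panel included some that followed the libraries standing apart. MET, the receptor for hepatocyte growth factor, had 162, 2396, 4089.5 and 2045 in nursed and 3227, 174, 338 and 2715 in replacer-fed libraries. Nursed library 1 and replacer-fed libraries 2 and 3 were the 3 lowest of the 8, and the difference of 0.66 (-1.68 to 3.01) had a wide interval. FGFR2, a receptor for fibroblast growth factors, had the same 3 lowest libraries, with 141, 855, 1072 and 558 against 1072, 146, 182 and 887 (0.38, -1.31 to 2.06). Without those 3 libraries MET and FGFR2 differed by -0.12 and -0.29.

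HGF, the ligand of MET, differed by 1.32 (-0.301 to 2.94), IGF1 by -0.01 (-0.998 to 0.99), and the stromal ligands of FGFR2, FGF7 and FGF10, by 0.23 (-0.697 to 1.16) and 0.20 (-0.58 to 0.97). The secreted phosphoprotein SPP1 differed by -0.08 (-0.84 to 0.69) and the calcium-regulating hormone STC1 by -0.22 (-0.82 to 0.38). None of these groups was free of overlap.

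**Figure D5:**
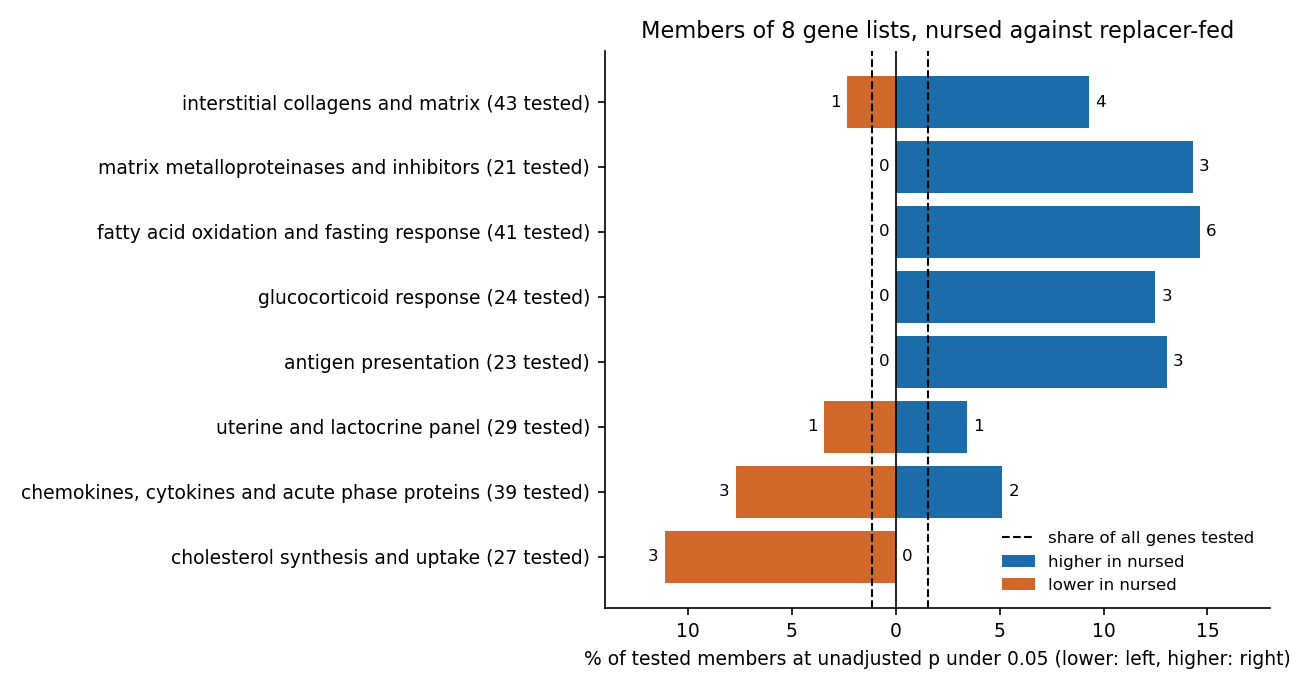
Share of tested members of the 8 described gene lists with an unadjusted limma p under 0.05, higher in nursed to the right and lower to the left, with the number of members at the end of each bar. Dashed lines mark the shares over all genes tested, 1.54% and 1.16%. Except for the uterine panel and the metalloproteinases, a list is shown because at least 3 members reached this level in 1 direction. A share beyond the dashed line in that direction was thus a condition of the choice and is no result. The largest share higher is 14.6% (6 fatty acid genes) and the largest share lower 11.1% (3 cholesterol genes).

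The other 30 of 38 gene lists had median differences between -0.26 and 0.24. None held more than 2 members higher or more than 1 lower at an unadjusted p under 0.05, and 16 held no such member. No list held a member past the adjusted threshold. Medians were -0.16 for 47 genes of oxidative phosphorylation and -0.12 for 56 cytosolic ribosomal proteins, -0.06 for 38 cell cycle genes, -0.05 for 35 interferon response genes, 0.11 for 32 receptors for hormones and growth factors of milk, and 0.24 for 30 genes of basement membrane and integrins.

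Markers of epithelium, stroma and smooth muscle, the tissues of the uterus, were measured in all libraries of both groups. Summed levels of all 19 marker lists overlapped between nursed and replacer-fed libraries, and no marker passed the adjusted threshold. Overlap was the rule, since only 2.63% of all genes were free of it. The sums are of linear values, so the most abundant markers weigh most in them. In whole tissue, fewer cells of a type and less RNA per cell cannot be told apart. The 16 tested epithelial markers summed to 69203 to 119380 in nursed and 96306 to 121159.6 in replacer-fed libraries. Of their differences 1 was positive and the other 15 negative, against 54.5% positive over all genes. Their median was -0.13, and FOXA2 was the sole one at an unadjusted p under 0.05 (6.25%, against 1.16% of all genes lower). The median epithelial marker lay 0.57 and 0.19 log2 units below its mean over the 8 libraries in nursed libraries 2 and 3 and 0.13 and 0.23 above it in nursed libraries 1 and 4, against -0.01 to 0.19 in the replacer-fed ones. Levels of EPCAM, KRT8 and KRT18, the defining members, differed by -0.01 ± 0.59, -0.10 ± 0.44 and -0.39 ± 0.50.

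Marker values are set beside the described lists here, and their part in those results was not tested. Of 12 endothelial markers, PECAM1, TIE1 and TEK were higher in nursed gilts at an unadjusted p under 0.05 (25.0%, against 1.54% of all genes), 9 differences were positive, and the sums were 17246 to 22697 against 16583 to 18489. Erythroid markers summed to 2184 to 4044 in nursed and 706 to 2957 in replacer-fed libraries, and 6 of 7 differences were positive. HBB (1.15 ± 0.42) and ALAS2 (1.55 ± 0.62) were higher at that level (28.6%, against 1.54% of all genes). Adipocyte markers, set beside the fatty acid genes, summed to 2847 to 8919.7 against 4459 to 9386, with ADIPOQ and LEP, which define fat cells, too low to be tested, and 1 of 4 differences positive. Macrophage markers, set beside MHC class II, MMP12, SAA3 and CXCL13, summed to 11865 to 14653 against 10783 to 14895, with none of 12 at that level. B and plasma cell markers summed to 1293 to 2703 against 1052 to 2014. For stroma and fibroblasts, set beside the matrix genes, 9 of 11 differences were positive with none at that level, and the sums were 256900.1 to 506199.8 against 222351 to 402319.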

How the data were processed

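The values deposited by the authors are signal, already normalized and on a linear scale, with none below 1. Per the submitters' processing notes, reads were converted with bcl2fastq and Sscrofa10.2 was the genome build. What aligned, counted and normalized the reads is not given in the sources used here. Values were not whole multiples of a read, so no count test was used and no binomial interval given. RNA came from a column kit and libraries from a messenger RNA kit, per the labels' protocols.

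Symbols came from the table or, by gene ID, from an NCBI table of a later assembly used for names only. Of 1779 entries in 38 gene lists and 19 marker lists, 1415 were matched. No gene sequences are shown.

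Values were taken as log2(value + 1) and fitted in limma 3.58.1 under R 4.3.3, with statmod 1.5.0, by robust empirical Bayes with a trend, all 12 libraries sharing 1 estimate of spread. The contrast was two-sided, with Benjamini-Hochberg adjustment over 16319 genes and a threshold of 0.05. The fit was tested on simulated data. Figures were drawn with matplotlib 3.10.9 and tables made with Python 3.11.15, pandas 2.3.3, numpy 2.4.6 and scipy 1.17.1.

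Members and lists were chosen with earlier results of these data known, and lists are described by counts and medians without a test. Named genes are those past the threshold with a symbol of known function, no overlap and a higher group with a mean of 10 or more, filled up to 12 per direction by smallest unadjusted p, then up to 4 members of smallest p of each list described, and the members of the uterine panel, of which 1 is not reported here. A list is described where at least 3 members have an unadjusted p under 0.05 in 1 direction, or where it is the panel or the metalloproteinase list. Alternatives tried were 0.1 and 5 in place of the added 1, no filter, a filter at 10 or over all 12 libraries, TMM scaling, quantile normalization, only the 8 day 2 libraries, a 2-fold threshold, plain empirical Bayes, quality weights per library, the fit without 3 libraries that stood apart, and each of 12 libraries left out in turn.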

Additional observations from a re-analysis of the deposited data

Results flagged for a closer look

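In 9 of 164 groups of 4 libraries tested, 1 library lay far from the other 3 (gap over range above Dixon's 95% critical value). Chance gives about 1 in 20 such groups, so this number is near what chance gives. RXFP1 was 934 in nursed library 3, where the others had 1678 to 1812, and STC1 was 721 in the same library, against 1677 to 1812. MMP13 was 11.8 there, against 4.84 to 5.59. IGF1 was 1282 in nursed library 4, against 1869 to 1947, and IGSF21 was 4.84 in nursed library 1, where the others stood at 1. With the others tied at the lowest value, any higher IGSF21 value gives a gap over range of 1.0. The rate of 1 in 20 does not hold for such a group. In replacer-fed library 2, RLN3 was 146 against 63.6 to 71.7, WNT7A was 5359.7 against 6218 to 6309, and POU3F4 stood at 1 against 3.82 to 4.43. BPIL2 was 294 in replacer-fed library 3, against 161 to 171.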

How the results depend on the processing

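LOC100514492 kept its direction and its call in every setting run, with log2 differences of -5.87 to -3.71 and limma adjusted p-values up to 0.00697. LOC100518566 kept its direction in all, and lost the call where stated in the report. The count of genes higher at an adjusted p under 0.05 went from 0 to 4 with library quality weights, to 3 without the 3 libraries that stood apart, and to 0 to 1 with 1 library left out (1, SYNJ2, without replacer-fed library 2). The count of genes lower went from 2 to 1 with only day 2 libraries, to 11 with quality weights, and to 1 to 2 with 1 library left out. At an unadjusted p under 0.05, the 252 higher became 964 with quality weights, 121 with a 2-fold threshold and 136 to 1054 with 1 library left out, and the 189 lower became 658, 108 and 123 to 489. The estimation of the quality weights did not converge fully. With them, GRM7, ANGPTL4, CPT1A and COL2A1 passed as higher, and BPIL2, HOXC4, IGSF21, SAA3 and CDH10 were among those that passed as lower. The weights also gave 8 metalloproteinase list members, 9 matrix members and 4 panel members higher, and 6 cholesterol members and 5 chemokine members lower. The cause was not tested.

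Of the list medians, chemokines turned sign, as given in the report. Metalloproteinases (0.20) moved to 0.046 with quantile normalization, 0.35 with quality weights, 0.12 with an added value of 5 and 0.12 to 0.28 with 1 library left out (0.12 without replacer-fed library 1). Antigen presentation (0.07) moved to 0.016, 0.0051 with the weights, 0.13 without the 3 libraries and 0.024 to 0.11 (0.024 and 0.048 without replacer-fed library 1 and 4, 0.11 without nursed library 4). The panel (0.07) moved to 0.039, 0.145, 0.016 and 0.023 to 0.10 (under 0.04 without nursed library 2 or 4 or replacer-fed library 1, 2 or 4). The cholesterol median (-0.22) was -0.14 without nursed library 2.

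Signs of these single genes turned, and as reported their differences were at most 0.66 in size. Without the 3 libraries, MET was at -0.12, FGFR2 at -0.29, ESR1 at -0.0014 and IGF1 at 0.24. With quality weights, RXFP1 was at 0.027, WNT7A at -0.11 and IGF1 at 0.13, and with quantile normalization TIMP1 was at -0.023 and PGR at -0.045. With 1 library left out, differences ran from -0.34 to 0.10 for STC1, -0.10 to 1.68 for MET, -0.037 to 1.01 for WNT5A, -0.10 to 1.0015 for FGFR2, -0.49 to 0.055 for RLN3, -0.036 to 0.22 for MMP2, -0.072 to 0.295 for HOXA11, -0.44 to 0.16 for SPP1, -0.14 to 0.18 for RXFP1, -0.25 to 0.40 for TIMP1, -0.057 to 0.18 for HOXA10, -0.38 to 0.84 for PGR, -0.15 to 0.18 for WNT7A and -0.13 to 0.16 for IGF1. No scaling moved the median over all genes by over 0.1.

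No paired analysis was possible because the replicate numbers come from accession order and pair no animals. Genes near the value of 1 are limited by depth, and litter, replacer makeup and counting are not given.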

Other observations

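Some list and marker genes outside the described lists had an unadjusted limma p under 0.05, none of them past the adjusted threshold (limma adjusted p = 0.997). They were chosen after their values were seen, and values are mean ± SD of 4 libraries. KRT5, a keratin of basal epithelium, was 5.23 ± 1.56 in nursed libraries and stood at the lowest value of 1 in all 4 replacer-fed ones, with a newborn mean of 3.56. The gene filter kept KRT5 only because all 4 nursed libraries exceeded 1, so its separation was a condition of being tested and is no result. DNAI1, a dynein of motile cilia, was 1.76 ± 1.05 in nursed and 4.98 ± 1.99 in replacer-fed libraries, with all newborn libraries at 1. SLPI, a protease inhibitor of mucosal secretions, was 23.1 ± 9.77 against 9.31 ± 3.70. FST, follistatin, which binds activin, was 774 ± 234 against 1308 ± 302 without overlap.

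WNT16, a WNT ligand, was 141 ± 38.8 in nursed and 72.1 ± 25.2 in replacer-fed libraries, and PTGIR, the prostacyclin receptor, was 24.1 ± 6.38 against 11.9 ± 9.86. SLC43A2, a transporter of branched-chain and aromatic amino acids, was 427 ± 67.8 against 281 ± 52.2 without overlap. TEK, the angiopoietin receptor of endothelium, was 1138 ± 261 against 621 ± 103, likewise without overlap. HEPH, hephaestin, a ferroxidase that helps iron leave cells, was 2696 ± 776 against 1713 ± 343.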
